A study of Mus musculus with 12 samples.

Results

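Markers of alternative and classical macrophage activation, 8 genes in all, were followed in bone marrow-derived macrophages (BMDMs) after activation of the beta2-adrenergic receptor (B2AR). They were the nitric oxide synthase gene *Nos2*, the interleukin-4 receptor chain gene *Il4ra*, the lectin receptor genes *Mrc1*, *Clec7a*, *Clec10a* and *Mgl2*, and the genes of the secreted proteins Chil3 and Retnla. The genes were taken by name, as widely used markers, and make up 8 of the 53379 genes of the count table. mRNA was sequenced from macrophages of 4 mice of the C57Bl/6J strain, untreated or after 1 h or 4 h with the B2AR agonist fenoterol at 1 µM. Cells of each mouse entered all 3 groups, so that each group holds 4 of the 12 libraries. The study's methods describe male mice of 8 to 20 weeks of age, whose marrow cells were grown for a week in medium conditioned by L929 cells, a fibroblast line that secretes the macrophage growth factor CSF1. All groups share this culture, and fenoterol and its duration are the differences that the labels give. The labels name no IL-4, IL-13, interferon or lipopolysaccharide, the agents usually used to raise these markers.

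Macrophages exposed to IL-4 or IL-13 signal through IL4RA and the transcription factor STAT6, and switch on a set of genes that includes *Mrc1*, *Chil3*, *Retnla*, *Clec10a* and *Mgl2*. Interferon-gamma together with bacterial products instead switches on *Nos2*, whose enzyme makes nitric oxide and citrulline from arginine. B2AR couples to cyclic AMP and protein kinase A, a route known to act on macrophage genes through CREB and C/EBP factors.

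Libraries held 14580533 to 24153284 counts, and their totals overlapped between the groups. All 10 macrophage markers examined, among them *Adgre1*, *Csf1r* and *Mertk*, were detected, with a summed CPM (counts scaled to a common library total) of 44012 to 45783 in untreated BMDMs, of 42492 to 49133 after 1 h and of 40336 to 44594 after 4 h. At 4 h, 6 of these 10 genes were lower and 3 were higher than in untreated cells, a share of 90%, against 40.0% of all genes tested. The 3 higher were *Cd14*, *Fcgr1* and *Itgam*, with log2 fold changes of 2.52, 0.72 and 0.42. Among the 6 lower, *Cx3cr1* and *Mertk* fell by 2.40 and 1.51, and *Adgre1* and *Csf1r* by 0.21 and 0.26. *Lyz2*, at a mean normalized count of 463094, was the largest term of the sum and did not pass. Lymphocyte markers summed to at most 0.319 CPM and erythroid markers to at most 0.157 CPM in any library. Markers of neutrophils and their precursors summed to 30.3 to 62.6 CPM and stromal markers to 23.3 to 73.0 CPM, with 0 tested genes of either list past the threshold at 1 h or 4 h in edgeR, DESeq2 or limma-voom, and 0 with an unadjusted p under 0.05. In these bulk samples, fewer cells of a type and less RNA per cell cannot be told apart.

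RefSeq sequences of the 250 bases before the annotated start (GRCm38.p6) were at hand for 6 of the 8 genes. *Clec10a* and *Nos2* had no entry. The RefSeq starts are not always those of GENCODE M21, whose gene spans are given further on: the windows of *Mrc1*, *Mgl2*, *Il4ra* and *Retnla* reach into these spans, that of *Il4ra* with most of its length. Windows of 5 genes are shown: *Mrc1*, *Clec7a* and *Mgl2* because their transcripts changed with fenoterol, *Il4ra* because it is the receptor of the pathway, and *Retnla* because it is the classic STAT6 target of the list. Capitals mark letters that match, on either strand, 1 of 7 motifs searched.
Mrc1, chr2:14229164-14229413, plus strand: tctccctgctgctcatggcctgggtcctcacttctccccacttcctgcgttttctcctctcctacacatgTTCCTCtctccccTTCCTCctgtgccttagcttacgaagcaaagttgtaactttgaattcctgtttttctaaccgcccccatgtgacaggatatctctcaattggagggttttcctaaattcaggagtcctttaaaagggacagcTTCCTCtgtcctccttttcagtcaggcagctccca
Clec7a, chr6:129472780-129473029, minus strand: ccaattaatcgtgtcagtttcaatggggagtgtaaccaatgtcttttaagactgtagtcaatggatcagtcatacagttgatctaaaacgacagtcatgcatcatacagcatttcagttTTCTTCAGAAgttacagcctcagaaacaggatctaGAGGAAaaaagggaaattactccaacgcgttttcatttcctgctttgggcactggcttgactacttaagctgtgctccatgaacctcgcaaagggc
Mgl2, chr11:70130107-70130356, plus strand: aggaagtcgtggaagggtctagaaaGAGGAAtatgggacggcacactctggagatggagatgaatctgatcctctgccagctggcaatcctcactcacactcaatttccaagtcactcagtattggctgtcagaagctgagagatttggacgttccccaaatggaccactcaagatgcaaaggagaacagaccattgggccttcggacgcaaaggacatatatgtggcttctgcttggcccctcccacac
Il4ra, chr7:125552021-125552270, plus strand: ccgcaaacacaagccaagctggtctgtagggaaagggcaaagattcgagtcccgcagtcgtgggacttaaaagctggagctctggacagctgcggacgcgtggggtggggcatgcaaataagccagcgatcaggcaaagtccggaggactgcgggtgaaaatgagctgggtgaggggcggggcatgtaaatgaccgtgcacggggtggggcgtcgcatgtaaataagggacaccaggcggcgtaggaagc
Retnla, chr16:48842359-48842608, plus strand: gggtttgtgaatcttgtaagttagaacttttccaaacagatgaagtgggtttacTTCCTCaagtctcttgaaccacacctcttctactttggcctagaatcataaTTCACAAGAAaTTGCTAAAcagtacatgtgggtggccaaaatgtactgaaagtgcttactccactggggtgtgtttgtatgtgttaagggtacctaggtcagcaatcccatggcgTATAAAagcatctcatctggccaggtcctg

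The core of the sites bound by the macrophage factor PU.1, GAGGAA, occurred 3 times before *Mrc1* and once each before *Clec7a*, *Mgl2* and *Retnla*, and in 23.3% of all 32851 windows of this length. The STAT6 motif TTCNNNNGAA occurred before *Clec7a*, from 131 to 122 bases upstream of the start shown, and before *Retnla*, from 145 to 136 bases upstream, and in 5.85% of all windows. The *Retnla* window also held the C/EBP motif TTGCNNAA, found in 9.56% of windows, and a TATAAA box 30 to 25 bases before the start, found in 12.4%. None of the windows of the 6 genes held TGACG, the core of the cyclic AMP response element, which occurred in 17.8% of all windows, its full form TGACGTCA (1.55%) or the AP-1 motif TGANTCA (6.75%). No motif was found before *Il4ra* or *Chil3*. These are matches of letters in a short window and say nothing of binding.

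At 1 h of fenoterol, *Clec7a* alone was higher than in untreated BMDMs, 0 were lower (also 0 at an unadjusted p under 0.05, in DESeq2 and in limma-voom, but 1, *Clec10a*, with the mouse as a block), and 5 of the 6 genes that could be tested did not pass the threshold (edgeR, quasi-likelihood, adjusted p under 0.05). Over the 12386 genes tested, 20.1% passed at 1 h, 10.0% higher and 10.1% lower. At 4 h, *Mrc1*, *Clec7a*, *Clec10a* and *Mgl2* were lower, while *Il4ra* and *Chil3* did not pass. That stood against a background of 40.0% of tested genes, 19.7% higher and 20.4% lower. Between 4 h and 1 h the same 4 lectin receptor genes were lower, against 38.5% of tested genes, 18.7% higher and 19.8% lower. In both of these comparisons 0 markers were higher, also in DESeq2 and in limma-voom, but 1, *Il4ra*, was higher at an unadjusted p under 0.05, with the mouse as a block, and when libraries were scaled by their totals alone. The median log2 fold change of the 6 tested markers was -0.01 at 1 h, -0.47 at 4 h and -0.71 from 1 h to 4 h, and that of all tested genes was -0.0049, 0.0042 and 0.0074. These 6 passed the filter on low counts in all 12 libraries, while *Retnla* and *Nos2* did not pass it and were not tested. The 3 comparisons share their samples and are not independent of each other.

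**Figure D1:**
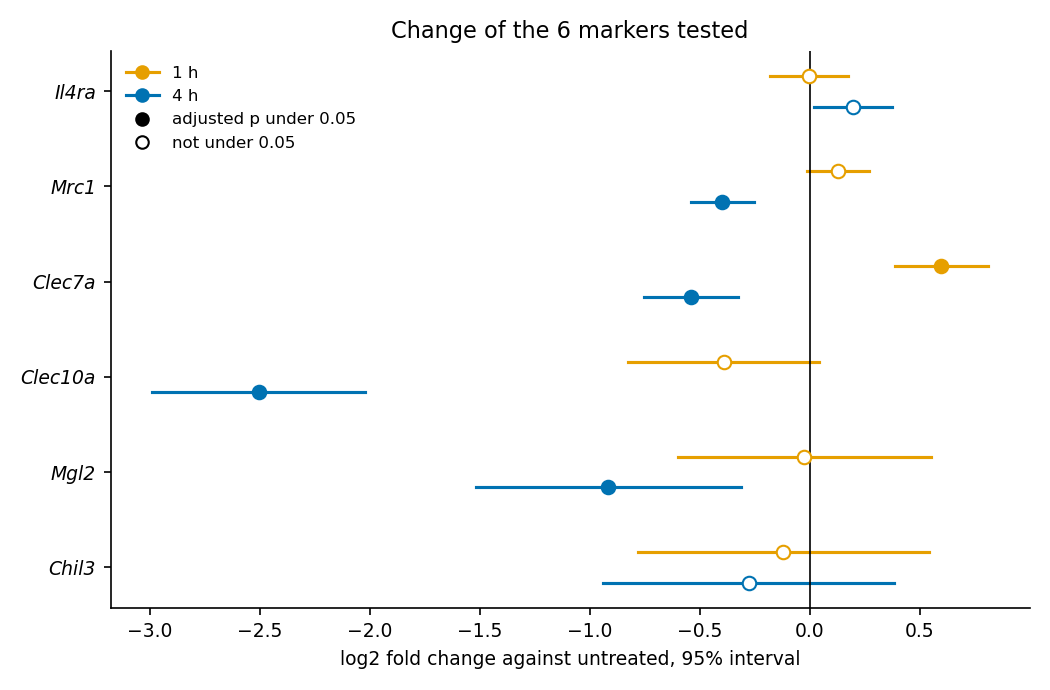
Log2 fold change of the 6 tested markers against untreated BMDMs at 1 h (orange) and 4 h (blue), with 95% intervals of the edgeR fit; filled points have an adjusted p under 0.05. At 4 h the 4 lectin receptor genes lie to the left, from -0.40 for *Mrc1* to -2.50 for *Clec10a*.

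*Nos2*, the inducible nitric oxide synthase (chr11:78920787-78960254, plus strand, GRCm38, ENSMUSG00000020826), was at the floor of detection. It had 1 count in the untreated library of mouse 2, 2 counts in the 4 h library of mouse 1, and 0 in the other 10 libraries. The limit that a count of 0 allows, 3 counts, corresponds to 0.124 to 0.168 CPM in the libraries at 0. No fold change is given, and a change below this level was not detectable at this depth. The limit covers counting error only.

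**Figure D2:**
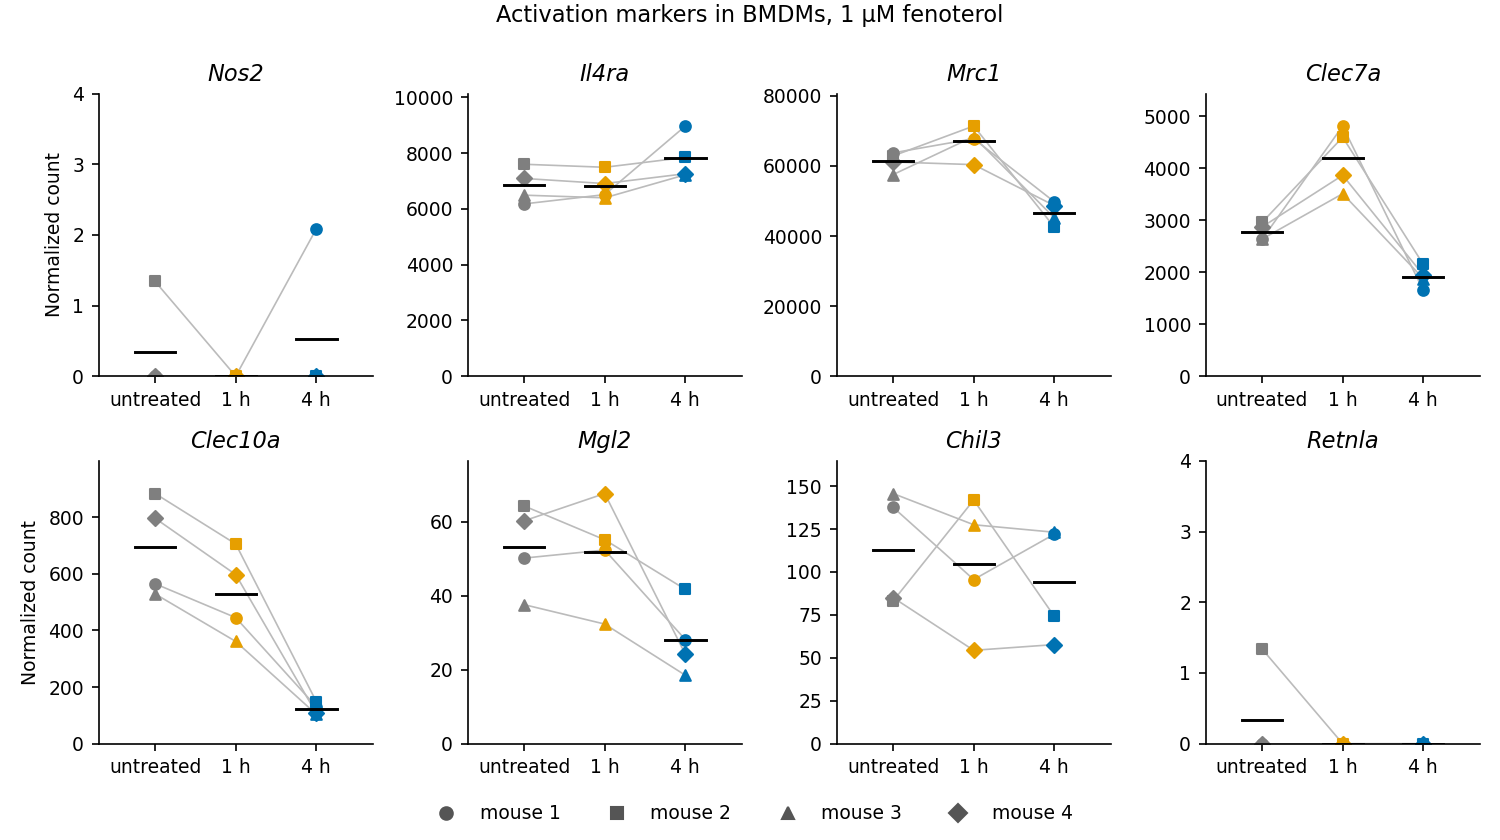
Normalized counts of the 8 markers in each library, grouped as untreated, 1 h and 4 h of 1 µM fenoterol; marker shapes and grey lines join the libraries of a mouse, black bars are group means, and each panel has its own axis from 0. *Clec7a* peaks at 1 h, *Clec10a* falls in all 4 mice, and *Nos2* and *Retnla* hold 3 and 1 raw counts in all.

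*Nos2* was set beside genes that bring in arginine, the substrate of its enzyme, and genes that use products of arginine. Of 22 genes of arginine and polyamine metabolism, *Nos2* included, 20 were tested, of which 7 were higher and 2 lower at 1 h, and 8 were higher and 2 lower at 4 h. These are 45% and 50% of the tested genes of the list, against 20.1% and 40.0% of all tested genes. The median log2 fold change of the list was 0.20 at 1 h and 0.14 at 4 h. *Odc1*, ornithine decarboxylase, which makes the first polyamine from ornithine, rose by 3.96 ± 0.75 and 4.18 ± 0.75 on the log2 scale (edgeR adjusted p = 0.00149 and 0.000435), although with limma-voom the 1 h call was lost (adjusted p = 0.0985). In mouse 4 its normalized count was 64.6, 254 and 344 in the 3 groups, against 125 to 174, 2492 to 2713 and 2829 to 3402 in the other 3 mice. *Ass1*, argininosuccinate synthase of the route that rebuilds arginine from citrulline, rose at 4 h by 1.91 ± 0.23 (edgeR adjusted p = 1.20e-05).

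Of the 4 transporter genes of this list, 2 were higher at both times and the other two did not pass at either. *Slc7a1*, a cationic amino acid transporter, rose by 1.23 and then 0.52 on the log2 scale (edgeR adjusted p = 1.47e-05 and 0.00934), and *Slc3a2*, the shared heavy chain of amino acid exchangers, by 1.14 and 0.60 (1.51e-09 and 9.14e-07). Among polyamine genes, spermine oxidase, *Smox*, rose by 1.34 and 1.76 (edgeR adjusted p = 3.66e-08 and 1.40e-09) and the antizyme inhibitor *Azin1* by 1.03 and 0.81 (9.38e-06 and 4.34e-05). The 2 lower genes of the list were *Sat1*, at -0.47 and -0.96 (edgeR adjusted p = 1.29e-06 and 4.15e-10), and *Paox*, at -0.59 and -0.38 (0.000407 and 0.00508).

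**Figure D3:**
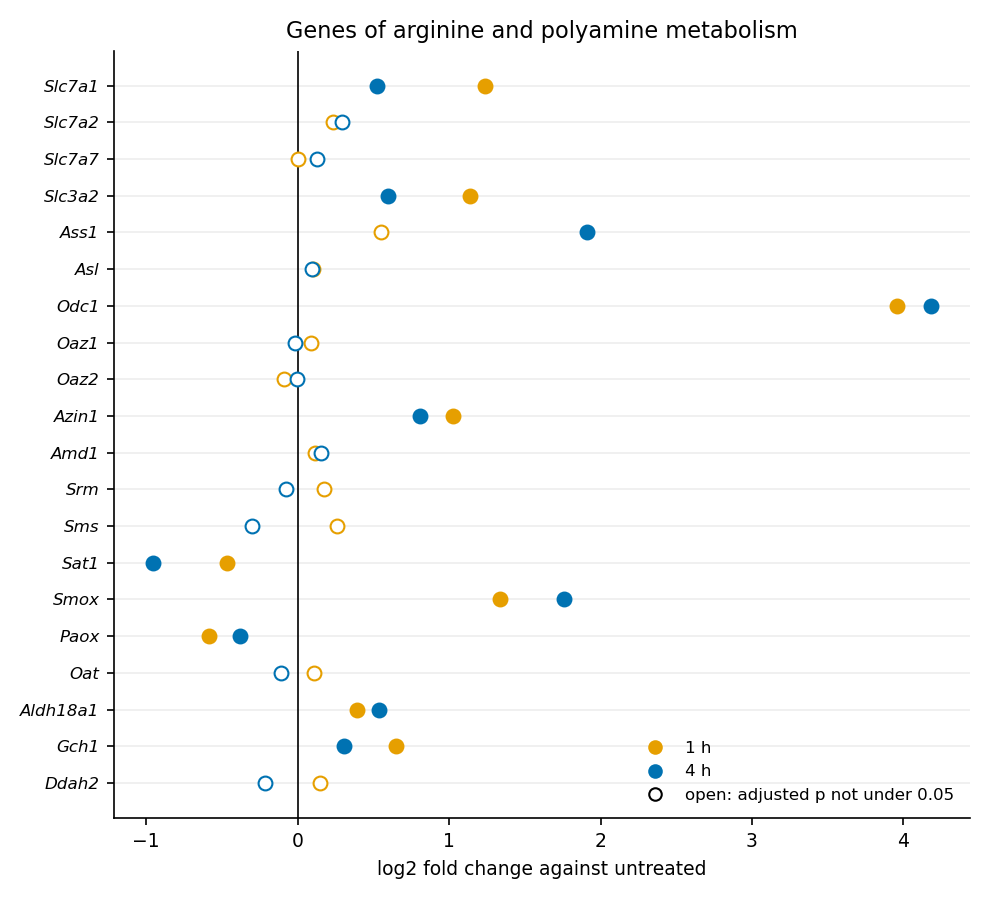
Log2 fold change against untreated BMDMs of the 20 tested genes of arginine and polyamine metabolism at 1 h (orange) and 4 h (blue), with open points where the adjusted p was not under 0.05. *Odc1* lies farthest to the right, at 3.96 and 4.18, and 2 genes were lower at both times.

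*Il4ra* encodes the signalling chain shared by the IL-4 and IL-13 receptors (chr7:125552120-125579474, plus strand, ENSMUSG00000030748). Normalized counts of mice 1 to 4 were 6179, 7601, 6493 and 7092 in untreated BMDMs, 6512, 7493, 6397 and 6909 at 1 h, and 8973, 7847, 7223 and 7262 at 4 h. The groups overlapped, although at 4 h each mouse was above its own untreated library. The 1 h estimate was -0.0025 ± 0.083 (log2, SE; edgeR adjusted p = 0.991), with a 95% interval from -0.18 to 0.17. At 4 h it was 0.19 ± 0.083 (edgeR adjusted p = 0.0769), and from 1 h to 4 h 0.20 ± 0.082 (adjusted p = 0.0747). On the other strand *Gm44876* overlaps 9.51% of its exon bases, with 0 counts. With the mouse as a block both passed, at 0.20 with an adjusted p of 0.0229 at 4 h (range over the alternatives, 0.0229 to 0.245) and of 0.0220 between the times (0.00898 to 0.239). They also passed with scaling by library size only, at 0.22 and 0.29 (edgeR adjusted p = 0.0418 and 0.00898). The 4 h call was gained without the untreated library of mouse 2 (0.25, edgeR adjusted p = 0.0352) and the later step without the 1 h library of mouse 2 (0.24, adjusted p = 0.0451).

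Of 13 genes of the IL-4 and IL-13 pathway, *Il4ra* included, 12 were tested, with 2 higher and 1 lower at 1 h and 1 higher and 5 lower at 4 h. The shares past the threshold, 25% and 50%, were near the 20.1% and 40.0% of all tested genes. The list's median log2 fold change was -0.02 and -0.21. *Il13ra1*, the partner chain of the type II receptor, at 4 h fell by 1.16 ± 0.15 on the log2 scale (edgeR adjusted p = 2.18e-05), from a normalized count of 137 ± 6.27 (SD, n = 4) to 61.6 ± 12.5. Others lower at 4 h included *Ptpn6*, at -0.67 (edgeR adjusted p = 8.33e-07), and *Jak1*, at -0.29 (0.00104). *Jak2*, a kinase of cytokine receptors, rose by 0.31 and 0.68 (edgeR adjusted p = 0.00601 and 1.96e-06). *Irs2*, an adaptor of the receptor, rose at 1 h by 1.06 (edgeR adjusted p = 3.90e-06) and did not pass at 4 h (-0.21, adjusted p = 0.147). *Stat6* was at 7205 ± 248, 7338 ± 219 and 7240 ± 201 normalized counts in the 3 groups and did not pass at either time.

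*Mrc1*, the mannose receptor, was the most abundant marker (chr2:14229392-14332057, plus strand, ENSMUSG00000026712), with 0.221% to 0.347% of all counts of a library. Its normalized counts in mice 1 to 4 were 63744, 62873, 57545 and 61144 in untreated BMDMs, 67784, 71413, 68391 and 60393 at 1 h, and 49769, 42528, 45190 and 48696 at 4 h. The 4 h libraries lay below all others, and the untreated and 1 h libraries overlapped, with 3 of 4 mice higher at 1 h. The change was 0.13 ± 0.066 (log2, SE) at 1 h (edgeR adjusted p = 0.215; 95% interval, -0.01 to 0.27) and -0.40 ± 0.066 at 4 h (1.32-fold lower, adjusted p = 0.000211). From 1 h to 4 h it fell by 0.53 ± 0.066 (edgeR adjusted p = 2.21e-05). Of the 10 macrophage markers given above, 6 were also lower at 4 h and 3 were higher. Their part in the fall of *Mrc1* was not tested.

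*Clec7a* encodes Dectin-1, the receptor of fungal beta-glucan (chr6:129461591-129472779, minus strand, ENSMUSG00000079293, listed in GENCODE M21 as a polymorphic pseudogene). It moved in opposite directions at the 2 times. Normalized counts of mice 1 to 4 were 2630, 2956, 2635 and 2868 in untreated BMDMs, 4809, 4594, 3508 and 3862 at 1 h, and 1649, 2150, 1876 and 1943 at 4 h. None of the 3 groups overlapped another, and all 4 mice rose at 1 h and were below their untreated level at 4 h. The log2 fold change was 0.60 ± 0.099 (SE; 1.51-fold, edgeR adjusted p = 0.000469) at 1 h and -0.54 ± 0.099 (1.46-fold lower, adjusted p = 0.000499) at 4 h. From 1 h to 4 h it fell by 1.14 ± 0.10 (2.20-fold lower, edgeR adjusted p = 5.80e-07).

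Among 19 other C-type lectin genes and signalling partners of *Clec7a*, 17 were tested, with 5 higher and 2 lower at 1 h and 3 higher and 6 lower at 4 h (41.2% and 52.9% of them, against 20.1% and 40.0% of all tested genes). The median log2 fold change was 0.0086 and -0.17. *Clec4e*, the Mincle receptor of mycobacterial glycolipid, rose by 1.15 and 2.20 on the log2 scale (edgeR adjusted p = 1.76e-05 and 1.05e-08), and its neighbour in function *Clec4d* rose by 1.12 at 4 h (adjusted p = 6.27e-08). *Clec12a*, an inhibitory receptor, fell by 1.23 at 4 h (edgeR adjusted p = 8.54e-07), and *Clec5a*, an activating receptor, fell by 0.95 (adjusted p = 0.00214). *Malt1*, a signalling partner downstream of Dectin-1, rose at 1 h by 0.83 (edgeR adjusted p = 7.84e-05).

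*Clec10a* and *Mgl2* encode paired galactose-type lectins of macrophages and dendritic cells. They are neighbours on the plus strand of chromosome 11, at chr11:70156197-70170834 (ENSMUSG00000000318) and chr11:70130329-70137550 (ENSMUSG00000040950), with 18.6 kb between them. Their transcripts share sequence: 8.49% of the 50-base windows of *Clec10a*, the length of a read, also occur in *Mgl2*, and 12.2% of those of *Mgl2* occur in *Clec10a*. Counts in that share of the genes are uncertain.

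Normalized counts of *Clec10a* in mice 1 to 4 were 565, 883, 529 and 796 in untreated BMDMs, 445, 705, 361 and 597 at 1 h, and 130, 148, 104 and 107 at 4 h. The 4 h libraries lay far below all others, and at 1 h each mouse was below its own untreated library although the groups overlapped. At 4 h it fell by 2.50 ± 0.23 on the log2 scale (5.67-fold lower, edgeR adjusted p = 5.22e-07), the largest of the tested markers that fell. At 1 h the change was -0.39 ± 0.20 (edgeR adjusted p = 0.214; 95% interval, -0.83 to 0.04). With the mouse as a block the 1 h change passed, at -0.40 with an adjusted p of 0.00316 (edgeR; range over the alternatives, 0.00316 to 0.492). From 1 h to 4 h *Clec10a* fell by 2.11 ± 0.23 (edgeR adjusted p = 4.44e-06).

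*Mgl2* was scarcer, with raw counts of 58, 48, 39 and 56 in untreated BMDMs, 51, 49, 33 and 66 at 1 h, and 27, 40, 20 and 31 at 4 h. Each mouse was lowest at 4 h, while the 4 h group overlapped both others after normalization. The change was -0.03 ± 0.27 at 1 h (log2, SE; edgeR adjusted p = 0.969; 95% interval, -0.60 to 0.55), -0.92 ± 0.28 at 4 h (1.89-fold lower, adjusted p = 0.0178), and -0.89 ± 0.28 from 1 h to 4 h (adjusted p = 0.0218). The 4 h call was lost without the untreated library of mouse 2 (edgeR adjusted p = 0.0511), the 4 h library of mouse 3 (0.0572) or that of mouse 4 (0.05002, just above the threshold). The call between the times was lost without the 1 h library of mouse 4 (edgeR adjusted p = 0.0711), the 4 h library of mouse 3 (0.0684) or that of mouse 4 (0.0579).

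The ratio of the 2 neighbouring genes is given as a description with no test, since it was chosen after its values had been seen. Per kilobase of exon, *Clec10a* was 8.12, 9.92, 10.1 and 9.53 times as abundant as *Mgl2* in the untreated libraries of mice 1 to 4, 6.13, 9.23, 8.05 and 6.37 times at 1 h, and 3.34, 2.56, 4.04 and 3.19 times at 4 h. The 4 h ratios lay below all others. The log2 ratio at 4 h differed from that in untreated BMDMs by -1.53 and from that at 1 h by -1.18. At 1 h the difference from untreated BMDMs was -0.36, and the ratio was lower at 1 h in each of the 4 mice. The 6 dendritic cell markers examined summed to 0.984 to 2.03 CPM without fenoterol, 0.950 to 1.32 after 1 h and 0.425 to 1.38 after 4 h, and their part in the fall of the lectin genes was not tested. *Zbtb46*, the 1 of them that could be tested, had a mean normalized count of 12.8, 6.66 and 6.24 in the 3 groups and did not pass (edgeR adjusted p = 0.285 and 0.133 against untreated BMDMs), although limma-voom called it lower at 4 h. *Flt3* was at 3.99, 2.84 and 5.79, and *Cd209a* was at 0 in the 4 h libraries, with 8 counts in all.

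*Chil3* encodes Ym1, a secreted chitinase-like protein (chr3:106147554-106167564, minus strand, ENSMUSG00000040809). Raw counts of mice 1 to 4 were 159, 62, 151 and 79 in untreated BMDMs, 93, 126, 130 and 53 at 1 h, and 117, 71, 133 and 74 at 4 h. The groups overlapped throughout, and the range within each group was wider than the gaps between the group means. The change was -0.12 ± 0.31 (log2, SE) at 1 h (edgeR adjusted p = 0.848; 95% interval, -0.78 to 0.54) and -0.28 ± 0.31 at 4 h (adjusted p = 0.516; -0.94 to 0.38), when all 4 mice were below their untreated level in normalized counts. *Chil3* is also a gene of neutrophils and their precursors. Over the 12 libraries its normalized count went with the summed CPM of 9 neutrophil-lineage genes (Pearson's r = 0.753 of log2 values, a description over libraries that share mice, culture and depth), and mouse 4 had the lowest sum in each group. The part of such cells in the level of *Chil3* was not tested. Of its 50-base windows, 16.9% also occur in *Chil4* and 13.3% in *Gm6522*, so that the count of *Chil3* is uncertain there. *Chil4* itself had 0 counts in all 12 libraries.

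**Figure D4:**
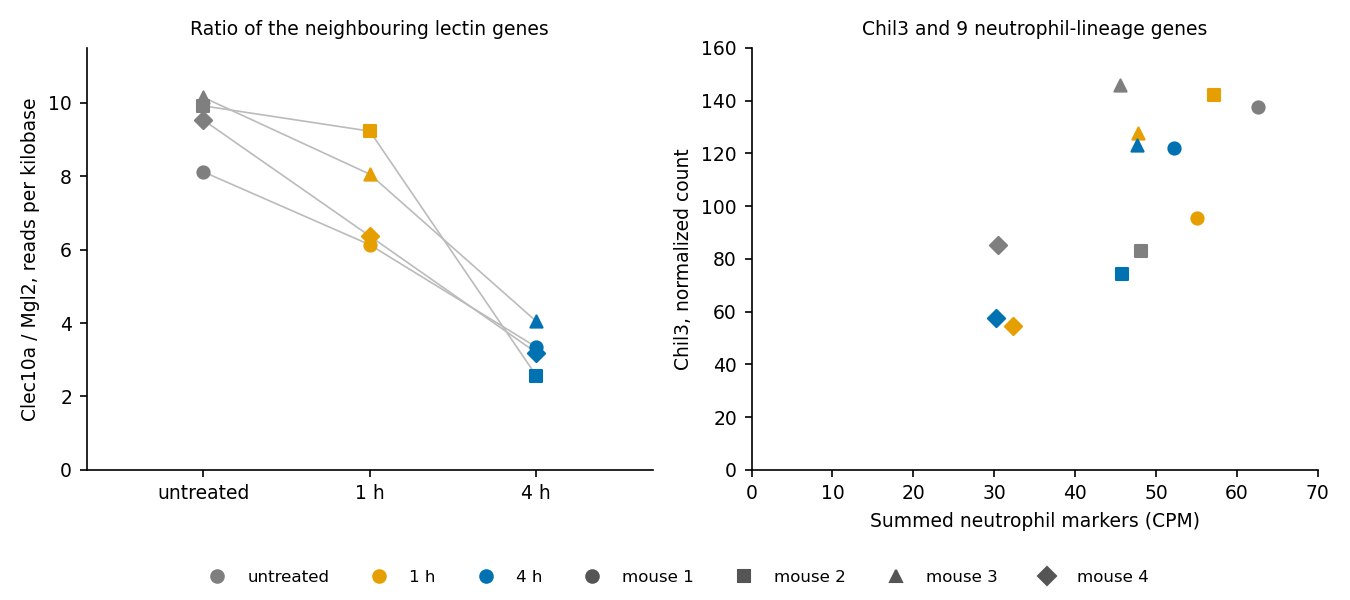
Left, the ratio of *Clec10a* to *Mgl2* in reads per kilobase of exon in each library, with grey lines joining a mouse; the 4 h libraries lie between 2.56 and 4.04, below the 1 h and untreated ones. Right, the normalized count of *Chil3* against the summed CPM of 9 neutrophil-lineage genes in the 12 libraries, coloured by group and shaped by mouse.

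*Retnla*, the gene of the resistin-like protein Fizz1 (chr16:48842551-48844461, plus strand, ENSMUSG00000061100), had 1 count in the untreated library of mouse 2 and 0 in the other 11 libraries. In the libraries at 0 the limit was the same as for *Nos2*, 0.124 to 0.168 CPM. Without the filter on low counts, edgeR gave adjusted p-values of 0.415 to 1 for *Retnla* and *Nos2* in the 3 comparisons. Its relative *Retnlg*, a gene of the neutrophil lineage, had 5 to 24 counts a library, and *Retn* at most 1. Of 10 chitinase-like and resistin-like genes, *Chil3* and *Retnla* included, 4 were tested, with 0 called at 1 h and 1 higher at 4 h (0% and 25%, against 20.1% and 40.0% of all tested genes). That gene was *Chid1*, which encodes a protein with a chitinase-like domain, at a log2 fold change of 0.27 ± 0.068 (edgeR adjusted p = 0.00611). At 1 h, 1 of the 4 had an unadjusted p under 0.05, and DESeq2 and limma-voom also called 0.

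Levels per kilobase of exon, on a common library size (RPKM), spread over several orders of magnitude. In untreated BMDMs *Mrc1* was at 491 ± 21.9 RPKM (SD, n = 4), *Il4ra* at 58.1 ± 5.37, *Clec7a* at 53.6 ± 3.19, *Clec10a* at 12.2 ± 3.05, *Chil3* at 3.53 ± 1.04 and *Mgl2* at 1.29 ± 0.290. The ranges of *Il4ra* and *Clec7a* overlapped, as did those of *Retnla* and *Nos2*, the lowest markers. At 1 h *Clec7a*, at 81.0 ± 11.8 RPKM, stood above *Il4ra*, at 58.0 ± 4.20. At 4 h *Clec10a* had come down to 2.15 ± 0.369 RPKM, within the range of *Chil3* at 2.94 ± 1.04, and *Mgl2* was at 0.685 ± 0.241. *Mrc1* was then at 372 ± 26.5 RPKM, still above all other markers.

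**Figure D5:**
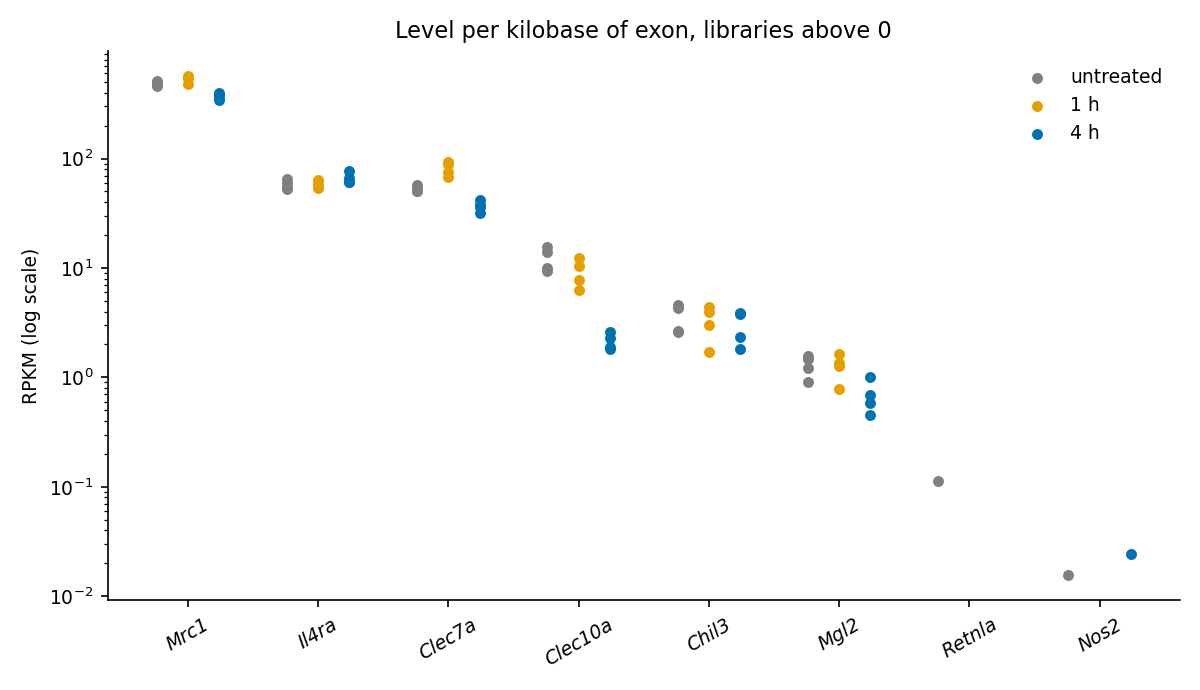
Level of the markers per kilobase of exon (RPKM, log axis) in each library with a value above 0, ordered by the untreated mean; grey is untreated, orange 1 h and blue 4 h. *Mrc1* lies at 340 to 571 RPKM in every library, and *Clec10a* reaches the level of *Chil3* at 4 h.

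Other markers of both activation states also moved in both directions. Of 32 other alternative activation markers, 23 were tested, with 7 higher and 3 lower at 1 h and 4 higher and 12 lower at 4 h, and a median log2 fold change of 0.02 and -0.66. In all 43.5% passed at 1 h and 69.6% at 4 h, against 20.1% and 40.0% of all tested genes. *Tgm2*, a transglutaminase, rose by 2.88 and 4.54 on the log2 scale (edgeR adjusted p = 3.63e-11 and 2.33e-12) and the growth factor gene *Vegfa* by 3.82 and 3.04 (1.71e-09 and 1.05e-08). The transcription factor genes *Irf4* and *Egr2*, both known from IL-4 responses, fell, with log2 fold changes of -3.53 and -3.50 at 1 h (edgeR adjusted p = 6.56e-07 and 8.00e-07) and of -2.84 and -2.93 at 4 h (1.58e-06 and 1.38e-06). *Pparg*, a nuclear receptor of lipid metabolism, fell by 2.05 at 4 h (edgeR adjusted p = 1.24e-08).

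Of 26 other classical activation markers, 19 were tested, with 6 higher and 1 lower at 1 h and 8 higher and 4 lower at 4 h, and a median log2 fold change of 0.17 and 0.50. Here 36.8% and 63.2% passed, read against the same 20.1% and 40.0%. *Il1b*, the interleukin-1 beta gene, rose by 4.63 and 3.28 (edgeR adjusted p = 4.39e-09 and 1.20e-07), and the co-stimulatory ligand gene *Cd86* by 0.86 and 1.88 (0.00172 and 5.00e-07). *Cd40*, a co-stimulatory receptor, fell by 2.60 at 4 h (edgeR adjusted p = 2.40e-09) and the interferon-induced chemokine gene *Cxcl10* fell by 2.19 (adjusted p = 0.000352).

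Of 21 transcriptional regulators of these states, some of them shared with the lists above, all were tested, with 8 higher and 5 lower at 1 h and 5 higher and 7 lower at 4 h, and a median log2 fold change of 0.03 and 0.0072. The shares that passed were 61.9% and 57.1%, again beside 20.1% and 40.0%. *Cebpb*, a C/EBP factor of macrophages, rose by 3.05 and 1.82 on the log2 scale (edgeR adjusted p = 5.05e-10 and 8.46e-08), whereas *Cebpa*, its relative, was lower, with log2 fold changes of -0.87 and -1.46 (adjusted p = 1.90e-07 and 6.26e-10). *Irf4* and *Pparg*, lower as given above, are on this list too. *Klf4*, a factor of IL-4 responses, rose at 1 h by 3.62 (edgeR adjusted p = 3.03e-11), and *Hif1a*, which acts on *Nos2* among other genes, rose by 0.43 and 1.59 (0.00196 and 2.59e-09).

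Among all tested genes, the closest patterns to each marker over the 12 libraries, by Pearson's r of log2 CPM, were as follows. *Tbc1d2b* was closest to *Mrc1* (r = 0.961), *Tlr2* and *Bach1* to *Clec7a* (0.980 and 0.979), *Smap2* to *Clec10a* (0.994), and *F13a1* and *Glul* to *Mgl2* (0.958 and 0.946). *Ptpn3* was closest to *Il4ra* (0.915) and *Neo1* to *Chil3* (0.876). These are descriptions over libraries that share groups and mice.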

How the data were processed

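mRNA was measured in 12 libraries. According to the study's methods and the submitters' processing notes, stranded libraries were read from 1 end over 50 bases, and the authors used TopHat2 2.0.11 for mapping to GRCm38 and HTSeq 0.8.0 for the counts. The annotation release and the strand setting of the counting are not given in the sources used here. What was deposited is a table of raw counts, in whole numbers without normalization. Symbols, coordinates and exon lengths came from GENCODE M21, which matched 53274 of the 53379 identifiers.

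From the deposited counts, genes with low values were removed with filterByExpr, which left 12386, libraries were scaled by TMM, and the 3 groups were compared with the quasi-likelihood test of edgeR 4.0.16 in R 4.3.3, in 1 fit over all libraries with no covariate. Benjamini-Hochberg adjustment covered all tested genes of a comparison, with a threshold of 0.05. For normalized counts, libraries were brought to the mean effective size of 19616700. RPKM divides these by the exon bases of the gene. The 95% intervals are those of the edgeR fit and include the spread between libraries, whereas limits for counts of 0 cover counting error only.

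Libraries with the same mouse number in the labels came from the same mouse. Their deviations from the group means correlated at 0.290 to 0.561 (12 pairs), against -0.304 to 0.0912 for different mice (36 pairs, 12386 genes). The deviations of a group sum to 0, so positive values within a mouse force lower ones between mice. The 2 ranges are therefore not independent. The main fit leaves this pairing out, as the study's methods name no block, so its SEs and intervals include the spread between mice. The mouse block was an alternative. For *Clec10a* at 1 h the SE was 0.20 in the main fit and 0.092 with the block. Other alternatives were DESeq2 1.42.0, limma-voom (limma 3.58.1), RLE scaling, library size only, no filter, a filter at a mean count of 50, a fit of the 2 groups compared, a threshold of 0.01, and leaving out each library.

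The 8 markers and all gene lists were chosen with earlier results of these data known. Results on some further genes are not reported here. From each list, up to 6 genes past the threshold in a comparison with untreated BMDMs could be named, by the larger absolute log2 fold change of the 2 times, given a mean normalized count not under 50, and for each tested marker the 2 genes with the highest correlation. Genes named for their role or direction, such as *Stat6*, *Cebpa*, *Sat1* and *Paox*, were chosen after their values were seen. So were markers of cell types, such as *Cd14* and *Siglecf*. The fit was also run on simulated counts with known changes, drawn with no effect of the mouse, which cannot speak to the pairing.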

Additional observations from a re-analysis of the deposited data

Results flagged for a closer look

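From 1 h to 4 h, 38.5% of all tested genes passed, 18.7% higher and 19.8% lower. For 4 markers the change from untreated BMDMs differed between the 2 times of treatment, by edgeR's test of 4 h against 1 h. These were the lectin receptor genes, lower at 4 h by log2 fold changes of -0.53 for *Mrc1* (adjusted p = 2.21e-05), -1.14 for *Clec7a* (5.80e-07), -2.11 for *Clec10a* (4.44e-06) and -0.89 for *Mgl2* (0.0218), with 4 of 4 mice in the same direction for each of these genes. The *Mgl2* value is the one among them that depends on single libraries, as given above. No library stood apart from its group by Dixon's test in any of the 18 marker and group sets with at least 10 counts in a library, where chance would mark about 1 in 20.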

How the results depend on the processing

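The numbers of markers past the threshold were 1 at 1 h, 4 at 4 h and 4 between the times. Under 21 alternatives, these 3 counts stayed within 1.5 times in all but the 1 h count with the mouse as a block. They were 1, 3 and 3 when genes with a mean count under 50 were left out, since fewer markers were then tested. With the replicate block, the mouse, they were 2, 5 and 5, while calls over all 12386 genes rose as well, to 3348, 5870 and 5775: it changed the calls of *Clec10a* at 1 h and of *Il4ra* at 4 h and between the times, and of no other marker. Leaving out 1 library gave 1 to 1, 3 to 4 and 3 to 5. Of the values of single markers under the alternatives, 345 kept direction and side of the threshold, 7 gained and 8 lost the call, and 15 changed direction, all of them estimates that did not pass. *Il4ra* at 1 h was 0.0038 with DESeq2, 0.0033 with RLE scaling, 0.0024 without the filter and 0.0046 in a fit of the 2 groups. When 1 library was left out, the 1 h estimates ran from -0.049 to 0.052 for *Il4ra*, from -0.18 to 0.15 for *Mgl2* and from -0.30 to 0.10 for *Chil3*, and *Chil3* between the times ran from -0.37 to 0.026. At a threshold of 0.01 both *Mgl2* calls were lost. The cause of these shifts was not tested. Of values of genes from the other lists that the naming rule allowed, 1115 kept their call and 19 lost it. One loss was *Odc1* at 1 h, given above. The rest were calls not given above, of *Clec4d* and *Ptpn6* at 1 h and of *Kdm6b* and *Tyk2* at 4 h. Depth limits *Nos2* and *Retnla*.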

Other observations

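Markers of mast cells, basophils and eosinophils, 6 genes in all, summed to 2.09 to 2.38 CPM without fenoterol, 0.837 to 2.31 after 1 h and 0.557 to 1.65 after 4 h. Of the 2 that could be tested, *Siglecf*, a receptor of eosinophils and some tissue macrophages, was lower at 4 h (edgeR adjusted p = 0.0130), at a mean normalized count of 27.7 in untreated BMDMs and 12.1 at 4 h. This call of 1 gene in 2 stands against 40.0% of all tested genes past the threshold at 4 h, and the gene was chosen after its values were seen, below the mean count asked of named genes.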
